A study of Homo sapiens with 9 samples.

Results

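Gene expression was compared between OPM-1 cells carrying targeting RNAs against both FBXW7 and KMT2D (gFBXW7 + gKMT2D) and OPM-1 cells carrying a luciferase control (gLuc). The comparison took every library of these 2 groups by its label, 6 of the 9 libraries of the series, with 3 libraries in each group. All groups were the same established human myeloma line, labelled wild type, grown in RPMI with fetal bovine serum, and stably expressed their targeting RNAs. The labels do not say how those RNAs act, nor whether a group was a pool or a clone. A further group of 3 libraries carried the FBXW7 RNA alone (gFBXW7). It shared the estimate of spread. For every gene that passed the main test and for some others, its values are given to show the level without the KMT2D RNA. Of 38478 genes in the table, 13262 had enough reads to be tested.

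FBXW7 recognises substrates for an SCF ubiquitin ligase, which marks phosphorylated proteins such as MYC, cyclin E and MCL1 for destruction by the proteasome. KMT2D is a histone methyltransferase that places monomethyl marks on lysine 4 of histone H3, mainly at enhancers, and it is often mutated in lymphomas of B cells. Myeloma arises from plasma cells, which secrete antibody, carry syndecan-1 on their surface and have lost most of the antigen presentation of the B cells they come from.

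The libraries held 16337492 to 27076242 reads assigned to genes. The plasma cell label held at the level of RNA: in RPKM, reads scaled for gene length and library total, the gLuc means were 6900 for JCHAIN, 550 for XBP1, 386 for TNFRSF17 and 179 for IRF4. Of 30 markers of other cell types, 2 passed the filter on low counts and 14 had no read in the 6 libraries, among them EPCAM, NKG7, ITGAM and CDH5. Scaled to the library total alone, their summed level was 26.1 to 41.7 CPM in gLuc and 27.7 to 39.0 CPM in gFBXW7 + gKMT2D, and 93.9% of those reads were HBB. Without HBB the sums were 1.997 to 2.89 CPM in gLuc and 0.842 to 1.81 CPM in gFBXW7 + gKMT2D. These sums did not overlap. PECAM1, the other marker that passed the filter, held 160 reads in the 6 libraries, and no further marker held more than 12. The PECAM1 values overlapped between the groups (log2 fold change -0.76, edgeR adjusted p = 0.90). The part of these markers in the results was not tested. Library gFBXW7 + gKMT2D 3 stood apart: cytosolic ribosomal protein transcripts took 10.6% of its reads against 4.72% to 8.15% in the other 8 libraries, and MALAT1 took 0.475% against 0.0961% to 0.281%. The list medians that depended most on this library are given with and without it. Expression values of single genes below are CPM with TMM scaling between libraries.

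Reads of FBXW7 and of KMT2D were found in every library, and neither gene passed the test. FBXW7 (chromosome 4, 152320544 to 152536063, GRCh38) had 53.8, 47.9 and 48.7 CPM across the gLuc libraries and 46.0, 45.2 and 71.7 with both RNAs. KMT2D (chromosome 12, 49018975 to 49059774) had 41.0, 58.3 and 104 CPM across the gLuc libraries and 48.0, 107 and 28.6 with both RNAs. The groups overlapped for both genes, and the KMT2D values within a group differed by more than the group means did. The log2 fold changes were 0.11 ± 0.18 (SE) for FBXW7 and -0.14 ± 0.45 (SE) for KMT2D, with adjusted p = 0.90 and 0.95 in edgeR's quasi-likelihood test. An altered sequence that is still transcribed would not be seen in these counts, so the transcript level does not check the labels.

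In gFBXW7 + gKMT2D against gLuc, 7 of 13262 genes (0.0528%) passed an adjusted p of 0.05 in the edgeR test, 4 higher (0.0302%) and 3 lower (0.0226%). SDC2, MLC1, AFAP1L2 and LINC01420 rose, by 1.42 to 2.85 on the log2 scale. CD74, LEFTY2 and ANXA6 fell, by 1.04 to 1.30. For each of the 7 genes the 3 libraries of one group lay wholly above or below the 3 of the other, which held for 6.97% of all tested genes (3.28% higher and 3.69% lower).

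SDC2 encodes syndecan-2, a transmembrane proteoglycan whose heparan sulfate chains bind growth factors. It had 3.71, 4.24 and 4.14 CPM across the gLuc libraries, 8.16, 5.29 and 8.20 with the FBXW7 RNA and 27.7, 24.9 and 34.7 with both RNAs. All gFBXW7 libraries lay above all gLuc libraries, and all gFBXW7 + gKMT2D libraries lay above both. The log2 fold change against gLuc was 2.85 ± 0.21 (SE, n = 3 and 3, edgeR adjusted p = 0.00081). Against gFBXW7 it was 2.01 (adjusted p = 0.013), and for gFBXW7 against gLuc it was 0.84 (unadjusted p = 0.0025, adjusted p = 0.96). These 3 comparisons share libraries and are not independent of each other.

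MLC1 encodes a membrane protein best known from astrocytes (chromosome 22, 50059391 to 50085902). It had 1.27, 1.13 and 1.22 CPM across the gLuc libraries, 1.30, 1.67 and 1.73 with the FBXW7 RNA and 8.48, 10.2 and 7.25 with both RNAs. The step lay between gFBXW7 and gFBXW7 + gKMT2D, with a log2 fold change of 2.84 ± 0.21 (SE) against gLuc and 2.47 against gFBXW7. AFAP1L2, an adaptor protein of SRC-family and PI3-kinase signalling also called XB130 (chromosome 10, 114294824 to 114404756), had 8.69, 8.65 and 9.70 CPM across the gLuc libraries, 8.37, 9.88 and 9.53 with the FBXW7 RNA and 24.3, 27.3 and 20.7 with both RNAs. The gLuc and gFBXW7 values overlapped and the gFBXW7 + gKMT2D values stood above both, with a log2 fold change of 1.42 ± 0.15 (SE, edgeR adjusted p = 0.012). LINC01420 was a low-count gene, with 6, 3 and 6 reads in gLuc, 3, 4 and 6 in gFBXW7, and 29, 44 and 32 reads in gFBXW7 + gKMT2D. Its log2 fold change was 2.73 ± 0.34 (SE, edgeR adjusted p = 0.028), and the number of reads limits its precision.

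CD74, a chaperone, the invariant chain, that guides newly made class II molecules to where peptide is loaded (chromosome 5, 150401637 to 150412929), had 141, 144 and 168 CPM across the gLuc libraries, 115, 152 and 143 with the FBXW7 RNA and 61.3, 61.3 and 60.9 with both RNAs. The last 3 libraries agreed closely and lay below all 6 others. Its log2 fold change was -1.30 ± 0.14 (SE, edgeR adjusted p = 0.013). LEFTY2, a secreted inhibitor of NODAL signalling in the TGF-beta family (chromosome 1, 225936598 to 225941489), had 6.73, 6.56 and 7.50 CPM across the gLuc libraries, 6.59, 5.71 and 6.27 with the FBXW7 RNA and 2.75, 2.92 and 2.73 with both RNAs. Here too the gLuc and gFBXW7 values overlapped, and the log2 fold change was -1.30 ± 0.15 (SE, edgeR adjusted p = 0.019). ANXA6, annexin A6, a calcium-dependent membrane-binding protein (chromosome 5, 151100712 to 151157882), had 31.6, 31.7 and 29.6 CPM across the gLuc libraries, 31.8, 31.9 and 27.9 with the FBXW7 RNA and 17.0, 15.1 and 13.1 with both RNAs. Its log2 fold change was -1.04 ± 0.13 (SE, edgeR adjusted p = 0.033).

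**Figure D1:**
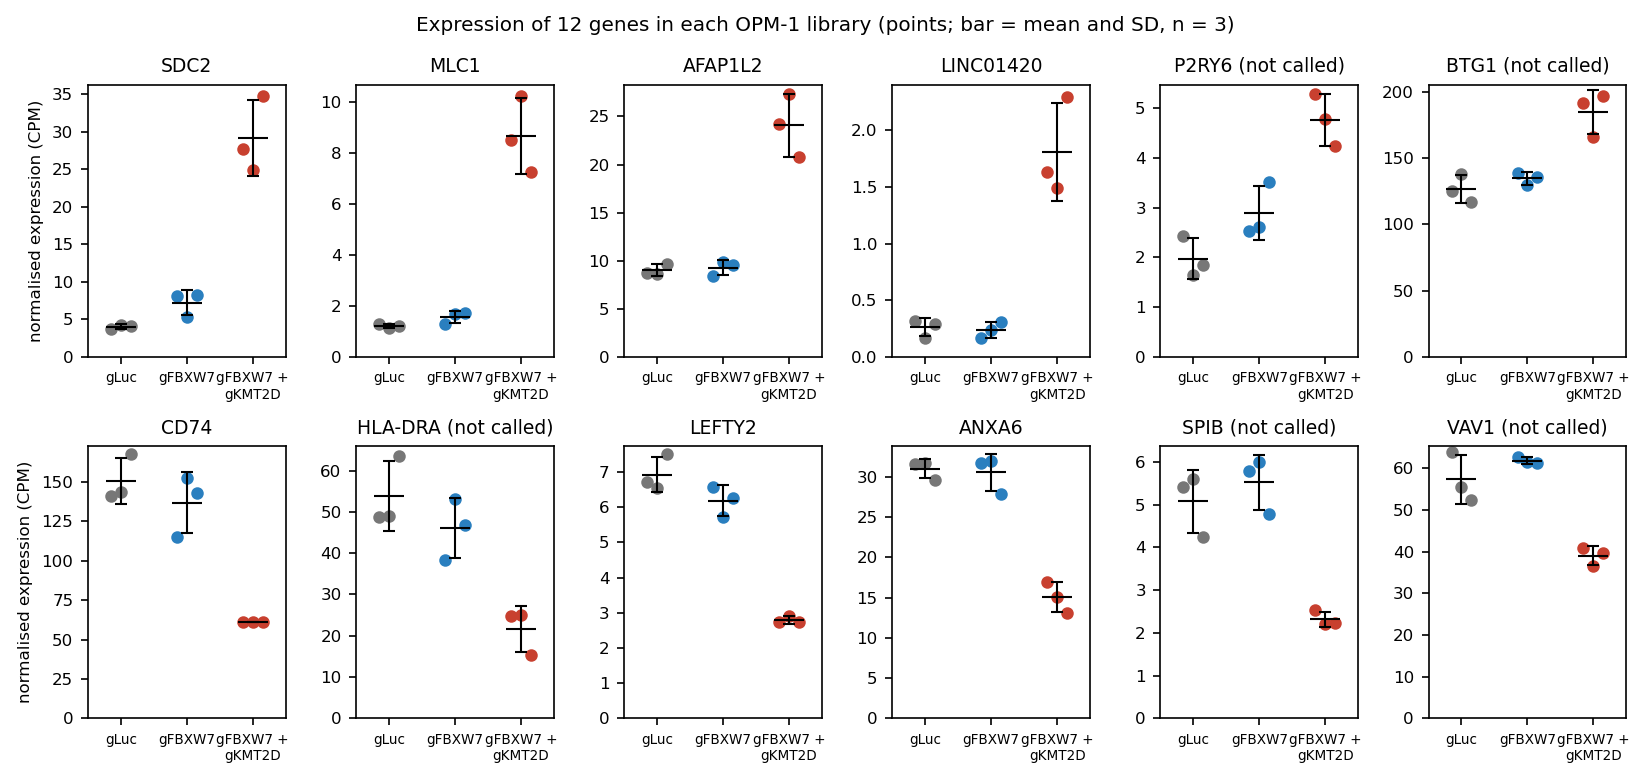
Normalised expression (CPM, linear axis from 0) of 12 genes in the 3 gLuc, 3 gFBXW7 and 3 gFBXW7 + gKMT2D libraries; points are libraries and bars the mean with SD. SDC2, MLC1, AFAP1L2 and LINC01420 stand higher and CD74, LEFTY2 and ANXA6 lower in gFBXW7 + gKMT2D, and genes marked "not called" did not pass an adjusted p of 0.05.

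For these genes the FBXW7 RNA alone gave smaller differences from gLuc. The log2 fold changes of gFBXW7 against gLuc were 0.37 for MLC1, 0.04 for AFAP1L2, -0.15 for LINC01420, -0.14 for CD74, -0.16 for LEFTY2 and -0.02 for ANXA6. None of the 7 passed the test in that comparison (edgeR adjusted p from 0.956 to 0.983). Against gFBXW7, the same 6 genes had 2.47, 1.38, 2.88, -1.16, -1.14 and -1.02, with edgeR adjusted p from 0.0039 to 0.0389. The genes had been picked by the same gFBXW7 + gKMT2D libraries, so these values are not separate support. There was no group with the KMT2D RNA alone, so an effect of that RNA by itself and an effect of the combination cannot be told apart. MLC1 and SDC2 passed under all 18 alternative analyses. AFAP1L2 and CD74 passed in 11 of 18, LEFTY2 and ANXA6 in 8 of 18, and LINC01420 in 8 of 17. Leaving out any 1 library gave between 2 and 8 genes past the threshold, and only the omission of gFBXW7 + gKMT2D 3 gave more than 7. The count was 2 without any 1 gLuc library, without gFBXW7 3 or without gFBXW7 + gKMT2D 1, 4 without gFBXW7 1 or gFBXW7 2, 5 without gFBXW7 + gKMT2D 2, and 8 without gFBXW7 + gKMT2D 3. The fold changes themselves kept their direction in all 125 of these values.

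CD74 was the only member of the MHC class II pathway to pass, and the list as a whole lay low. MHC class II molecules present peptides to CD4+ T cells, and their genes are driven by the coactivator CIITA together with the RFX complex and NF-Y. Of 12 tested genes, 9 were lower and 3 higher, with a median log2 fold change of -0.83 against 0.00 for all tested genes. By unadjusted p under 0.05, 7 of the 12 were lower and none higher, where 1.47% of all tested genes were lower and 2.14% higher. The median was -0.76, -0.69 and -0.99 without gFBXW7 + gKMT2D 1, 2 and 3 in turn, and -0.98 with a surrogate variable in the model. That variable is an estimate, from all genes, of hidden variation between libraries. It was highest in gFBXW7 + gKMT2D 3 (0.70) and lowest in gLuc 3 (-0.46) and gFBXW7 + gKMT2D 2 (-0.42). It was estimated from the same 9 libraries and then taken as known. In the edgeR fit with it, 9.42% of all tested genes had an unadjusted p under 0.05, against 3.61% without it.

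HLA-DRA, the alpha chain of HLA-DR, had 48.8, 49.0 and 63.5 CPM across the gLuc libraries and 24.8, 25.1 and 15.3 with both RNAs. The groups did not overlap, yet its adjusted p in edgeR was 0.17, with a log2 fold change of -1.30 ± 0.22 (SE). It passed with DESeq2 (adjusted p = 4.3e-05) and with the surrogate variable (log2 fold change -1.15, adjusted p = 0.00054). HLA-DQB1 had 5.03, 3.90 and 3.61 CPM against 2.30, 2.10 and 2.58 CPM, a log2 fold change of -0.85 ± 0.20 (SE, edgeR adjusted p = 0.74). CIITA itself, the coactivator, had 11.6, 11.8 and 17.2 CPM against 7.47, 9.74 and 7.54 CPM, a log2 fold change of -0.71 ± 0.20 (SE, edgeR adjusted p = 0.90). All 3 of these genes were lower in every gFBXW7 + gKMT2D library than in any gLuc library, and none passed in the edgeR fit without the surrogate variable. HLA-DQB1 passed with that variable (adjusted p = 0.026).

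The other class II chains pointed the same way. HLA-DRB1 had 12.7, 10.7 and 8.97 CPM across the gLuc libraries and 4.94, 4.51 and 7.75 with both RNAs, and HLA-DQA1 had 9.65, 7.29 and 9.31 against 4.21, 3.33 and 7.46 CPM. In both, gFBXW7 + gKMT2D 3 was the highest of its group, and HLA-DQA1 overlapped with gLuc through it. Their log2 fold changes were -0.93 and -0.83 (edgeR adjusted p = 0.74 and 0.90), beside -1.16 for HLA-DRB5 and -0.83 for HLA-DPB1, which had few reads. Reads of HLA genes can be shared between near-identical family members, so the split between them is uncertain. With the surrogate variable, 5 class II genes passed, all lower: CD74, HLA-DRA, HLA-DRB1, HLA-DQA1 and HLA-DQB1. That fit called 0.302% of all tested genes lower and 0.113% higher. RFX5, RFXANK and RFXAP, which encode the RFX complex, had log2 fold changes of -0.34, 0.08 and 0.21, and CTSS, the protease that trims the invariant chain, 0.43. Of the MHC class I and peptide loading genes, 13 were tested, of which 8 were higher and 5 lower, around a median log2 fold change of 0.03 (-0.04 without gFBXW7 + gKMT2D 3) and no gene under an unadjusted p of 0.05 in either direction. The difference between the class I and class II lists was not tested.

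The promoters of 4 of the 5 class II genes that passed with the surrogate variable are shown, HLA-DRA having no window in the table used, because class II genes share promoter elements, among them the Y box bound by NF-Y, whose core is CCAAT. Each window, from RefSeq on GRCh38.p14, runs from 250 bases before to 50 bases after the annotated start and is written 5′ to 3′ on the gene's strand, with CCAAT or its reverse complement ATTGG in capitals. The windows are chr5:150412861-150413160 (minus strand) for CD74, chr6:32637156-32637455 (plus) for HLA-DQA1, chr6:32666608-32666907 (minus) for HLA-DQB1 and chr6:32589799-32590098 (minus) for HLA-DRB1.
CD74: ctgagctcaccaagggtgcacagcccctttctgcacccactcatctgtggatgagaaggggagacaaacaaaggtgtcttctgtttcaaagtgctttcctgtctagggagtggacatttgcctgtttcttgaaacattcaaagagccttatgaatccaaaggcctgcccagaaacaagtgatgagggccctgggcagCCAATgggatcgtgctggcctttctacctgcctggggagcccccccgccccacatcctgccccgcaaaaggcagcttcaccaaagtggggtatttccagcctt
HLA-DQA1: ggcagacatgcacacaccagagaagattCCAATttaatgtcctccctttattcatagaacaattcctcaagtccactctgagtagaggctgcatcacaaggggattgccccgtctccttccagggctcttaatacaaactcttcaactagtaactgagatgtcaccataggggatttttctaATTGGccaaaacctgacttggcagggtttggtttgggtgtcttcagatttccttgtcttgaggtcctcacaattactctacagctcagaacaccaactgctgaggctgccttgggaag
HLA-DQB1: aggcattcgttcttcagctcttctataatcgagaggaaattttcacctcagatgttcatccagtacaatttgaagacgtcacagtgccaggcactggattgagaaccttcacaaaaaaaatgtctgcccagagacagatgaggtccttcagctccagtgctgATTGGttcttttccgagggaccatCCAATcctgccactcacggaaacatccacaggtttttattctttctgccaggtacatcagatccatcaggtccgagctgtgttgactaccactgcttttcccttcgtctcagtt
HLA-DRB1: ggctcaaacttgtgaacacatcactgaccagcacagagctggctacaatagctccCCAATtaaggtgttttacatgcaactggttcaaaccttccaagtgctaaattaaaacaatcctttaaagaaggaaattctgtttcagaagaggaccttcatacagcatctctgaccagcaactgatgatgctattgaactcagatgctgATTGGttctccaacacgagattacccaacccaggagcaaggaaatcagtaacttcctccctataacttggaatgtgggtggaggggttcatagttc

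CD74 held 1 match, starting at position -53 from the start site, and HLA-DQA1, HLA-DQB1 and HLA-DRB1 each held 2, the nearer ones at -68, -64 and -46. Of the 12 class II genes tested, 9 had a window in the table and 7 of those held the motif in at least 1 window, RFX5 among them. These 9 genes had 13 windows, and by window, the count used for the shares that follow, 7 of 13 held the motif. The letters occurred in 34.6% of all 35116 promoter windows and in 35.5% of 13548 windows of tested genes. A match shows only that the letters are there.

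Genes of mature B cells, a stage before the plasma cell, were tested in 9 cases of 24 listed, and the rest had too few reads. None passed in edgeR, 3 were lower and none higher at an unadjusted p under 0.05 (against 1.47% and 2.14% of all tested genes), 5 were lower and 4 higher in all, and the median log2 fold change was -0.34. SPIB, an ETS factor of B cells and plasmacytoid dendritic cells that is normally low in plasma cells, had 5.41, 5.60 and 4.24 CPM across the gLuc libraries, 5.78, 6.01 and 4.79 with the FBXW7 RNA and 2.53, 2.21 and 2.22 with both RNAs. The gFBXW7 + gKMT2D libraries lay below the other 6, with a log2 fold change of -1.13 ± 0.19 (SE, edgeR adjusted p = 0.17). It passed with DESeq2 (adjusted p = 0.0015) and with the surrogate variable (adjusted p = 0.0070). CR2, the complement receptor CD21, had a log2 fold change of -0.997 (unadjusted p = 0.029). The remaining gene of these 3 was CIITA, already described above with the class II genes. The B cell repressors BCL6 and BACH2 had -0.44 and 0.07, with overlapping groups.

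Plasma cell identity genes showed no common shift. Of 18 tested, 9 were higher and 9 lower, around a median log2 fold change of 0.00 (-0.08 without gFBXW7 + gKMT2D 3), and none passed in edgeR, with 1 under an unadjusted p of 0.05 (SDC1, lower). In 3 of them, SDC1, POU2AF1 and SLAMF7, every gFBXW7 + gKMT2D library was lower than any gLuc library, and no gene showed the reverse. Over all tested genes 3.69% lay lower and 3.28% higher without overlap, and 1.47% were lower at an unadjusted p under 0.05. CCR10, a chemokine receptor of IgA plasma cells, passed with the surrogate variable (log2 fold change -0.71, adjusted p = 0.0040), but its groups overlapped, with 70.3, 43.6 and 34.4 CPM against 36.7, 22.9 and 62.9 CPM (edgeR adjusted p = 0.90). IRF4, the transcription factor on which myeloma cells depend, had 780, 998 and 1070 CPM across the gLuc libraries and 793, 1015 and 453 with both RNAs, with the lowest value in the library that stood apart. PRDM1, which encodes BLIMP-1, had 218, 241 and 265 CPM against 229, 265 and 270 CPM. XBP1, the factor of the secretory programme, had 1129, 947 and 866 CPM against 861, 707 and 1058 CPM. The groups overlapped for all 3 genes, and the log2 fold changes were -0.33 for IRF4, 0.08 for PRDM1 and -0.16 for XBP1 (edgeR adjusted p = 0.90, 0.91 and 0.90). JCHAIN, the joining chain of secreted IgA and IgM, had a log2 fold change of -0.01, MZB1, a chaperone of antibody assembly, 0.21, and POU2AF1, a B cell coactivator, -0.24.

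Among surface proteins studied as myeloma targets, 21 were tested, 9 higher and 12 lower (median log2 fold change -0.08), and CD74 alone passed. By unadjusted p under 0.05, 5 were lower and none higher, against 1.47% and 2.14% of all tested genes. GPRC5D, an orphan receptor targeted by T cell therapies, had 74.1, 85.9 and 81.9 CPM across the gLuc libraries and 52.7, 57.1 and 26.7 with both RNAs, the lowest in the library that stood apart. The groups did not overlap, with a log2 fold change of -0.82 ± 0.24 (SE, edgeR adjusted p = 0.90), and GPRC5D passed with the surrogate variable (log2 fold change -0.67, adjusted p = 0.029). LY9, a SLAM family receptor, had 2.33, 2.94 and 2.19 CPM against 1.52, 1.63 and 0.789 CPM, and TNFRSF10A, a receptor for TRAIL, had a log2 fold change of -0.53 (unadjusted p = 0.042). TNFRSF17, which encodes BCMA, had 509, 358 and 268 CPM across the gLuc libraries and 376, 247 and 633 with both RNAs. CD38, the target of daratumumab, had 62.0, 69.4 and 74.3 CPM against 57.4, 70.9 and 51.9 CPM. For both the groups overlapped, with log2 fold changes of 0.15 ± 0.34 (SE) and -0.19 ± 0.14 (SE). SLAMF7 had -0.17.

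The syndecans differed from each other. SDC1, syndecan-1 or CD138, had 386, 351 and 338 CPM across the gLuc libraries, 352, 374 and 376 with the FBXW7 RNA and 306, 292 and 239 with both RNAs. It was lower in every gFBXW7 + gKMT2D library than in any gLuc library, with a log2 fold change of -0.36 ± 0.14 (SE, edgeR adjusted p = 0.90). In level per length, SDC1 had a mean of 99.3 RPKM in gLuc, and SDC2 had 1.12 RPKM in gLuc and 7.62 RPKM in gFBXW7 + gKMT2D, so SDC1 remained far the more abundant. SDC3 had a log2 fold change of -0.14. Of 15 tested syndecans, glypicans and heparan sulfate enzymes, SDC2 alone passed, 13 were lower and 2 higher, and the median was -0.08. Without gFBXW7 + gKMT2D 3 the median was 0.04, and without gFBXW7 + gKMT2D 2 it was -0.21. The enzymes that build the sugar chains ranged in log2 fold change from -0.33 for XYLT1 to 0.16 for B4GALT7, with none under an unadjusted p of 0.05.

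Adhesion and homing genes held no gene past the threshold among 20 tested, with 14 lower and 6 higher and a median log2 fold change of -0.13, or -0.07 without gFBXW7 + gKMT2D 3. With the surrogate variable 1 passed, CCR10, lower as given above, where that fit called 0.302% of all tested genes lower. One was under an unadjusted p of 0.05 in edgeR: S1PR2, a sphingosine 1-phosphate receptor that keeps B cells in the germinal centre, with 3.39, 4.86 and 4.34 CPM against 3.14, 1.83 and 2.94 CPM (log2 fold change -0.69 ± 0.24, SE). Of all tested genes 1.47% were lower at that unadjusted level. ITGB7, the integrin beta 7 chain, had 2275, 2208 and 2045 CPM against 2365, 2156 and 1303 CPM, and CXCR4, the receptor that holds plasma cells in the marrow, a log2 fold change of 0.03.

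In antigen receptor signalling, named members lay on both sides of gLuc. Of 18 adaptors and kinases, 8 were higher and 10 lower, around a median log2 fold change of -0.03 (0.00 without gFBXW7 + gKMT2D 3), and AFAP1L2 was the one that passed. VAV1, a guanine nucleotide exchange factor for RAC in blood cells, had 64.0, 55.6 and 52.5 CPM across the gLuc libraries, 62.8, 61.5 and 61.2 with the FBXW7 RNA and 40.9, 36.6 and 39.8 with both RNAs. FYN, a SRC-family kinase, had 13.9, 14.5 and 11.6 CPM, 17.5, 16.3 and 16.3 CPM, and 19.8, 17.4 and 17.4 CPM in the same order. VAV1 was lower than both other groups in every gFBXW7 + gKMT2D library, whereas FYN was already higher than gLuc in gFBXW7. The log2 fold changes against gLuc were -0.55 ± 0.12 (SE, edgeR adjusted p = 0.56) for VAV1 and 0.45 ± 0.13 (SE, edgeR adjusted p = 0.90) for FYN. VAV1 passed with DESeq2 (adjusted p = 0.013) and with the surrogate variable (adjusted p = 0.0068). PTPRC, the phosphatase CD45, was near the detection limit, with 0.371, 0.622 and 0.682 CPM across the gLuc libraries and 0.842, 1.26 and 1.005 with both RNAs (log2 fold change 0.90, edgeR adjusted p = 0.90).

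**Figure D2:**
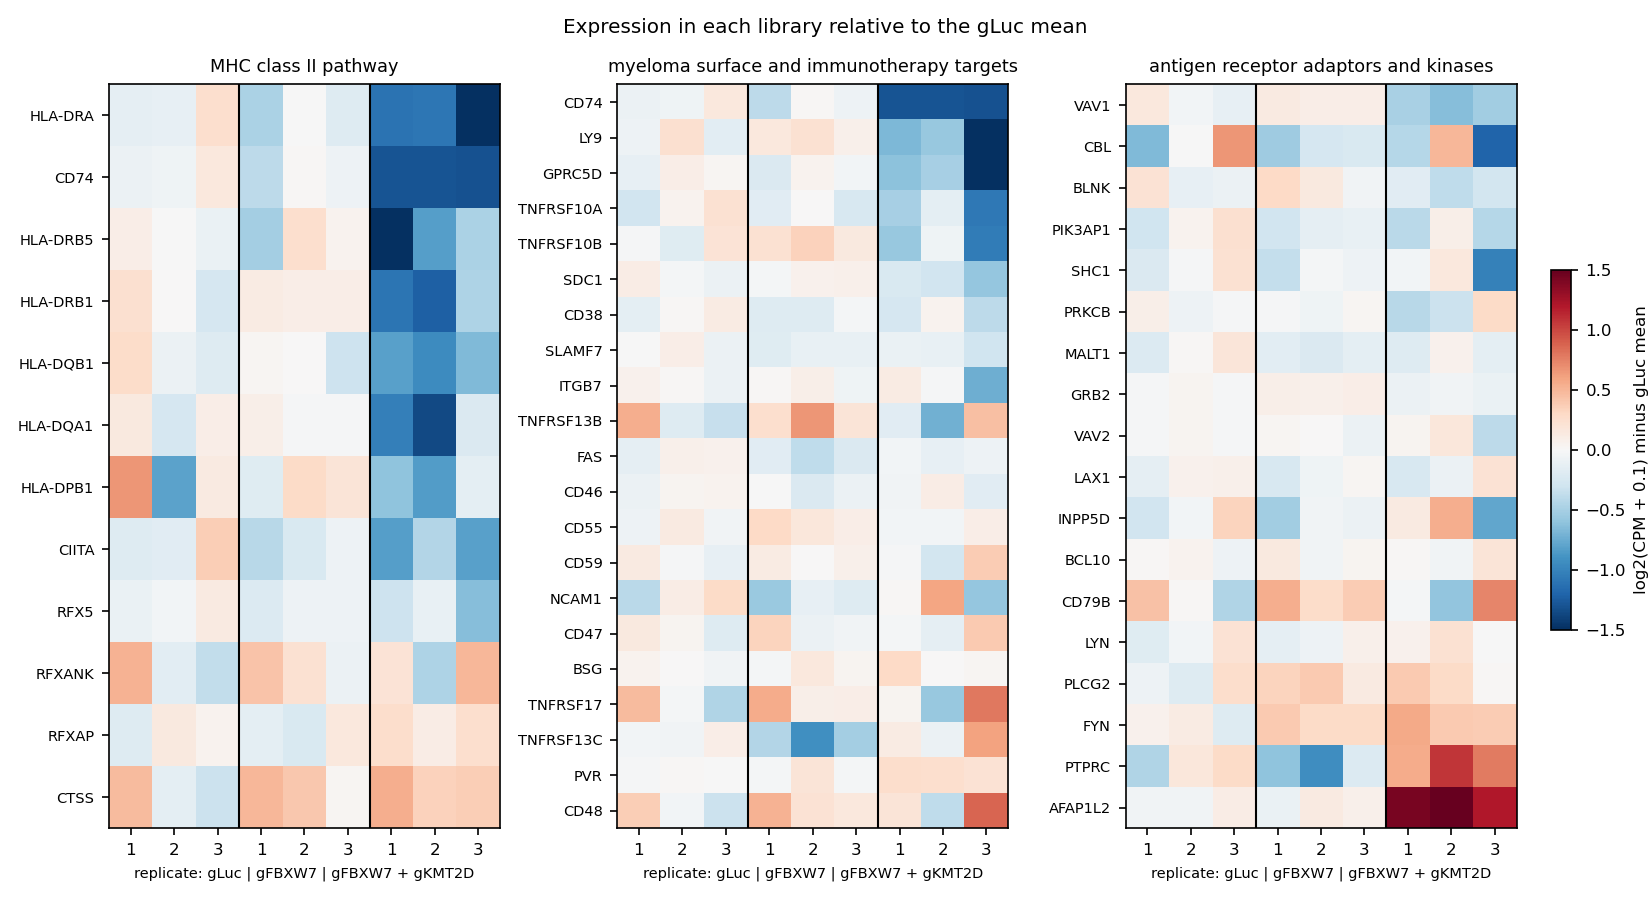
Heat map of log2(CPM + 0.1) in each of the 9 libraries minus the gLuc mean, for the tested members of 3 lists ordered by fold change, with colours limited at 1.5 in either direction; columns are replicates 1 to 3 of gLuc, gFBXW7 and gFBXW7 + gKMT2D. The class II chains and CD74 are lower in the last 3 columns, and AFAP1L2 at the foot of the signalling list is higher there.

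IL-6, acting through JAK kinases and STAT3, is a survival signal for myeloma cells. None of the 23 tested genes of that pathway passed in edgeR, 18 were lower and 5 higher, and 2 were lower at an unadjusted p under 0.05, against 1.47% of all tested genes. The median log2 fold change was -0.20 with all libraries and -0.06 without gFBXW7 + gKMT2D 3. SOCS3, a feedback inhibitor that STAT3 induces, had 3.66, 3.11 and 4.14 CPM across the gLuc libraries and 2.25, 2.31 and 1.29 with both RNAs. IL21R, the interleukin 21 receptor, had 3.23, 2.94 and 2.97 CPM against 1.80, 1.93 and 2.15 CPM. Both groups of values were separate, with log2 fold changes of -0.87 ± 0.23 (SE) for SOCS3 and -0.64 ± 0.18 (SE) for IL21R, and neither passed across all genes (edgeR adjusted p = 0.90 for each). The receptor IL6R, its partner IL6ST and STAT3 had log2 fold changes of -0.19, -0.27 and 0.06.

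The NF-kB list had 21 tested genes, 4 higher and 17 lower, and a median log2 fold change of -0.12. None passed in edgeR and 1 was under an unadjusted p of 0.05, TNIP1, an inhibitor of the pathway, with 91.2, 77.6 and 78.1 CPM against 74.2, 68.6 and 54.3 CPM (log2 fold change -0.32 ± 0.14, SE). At that unadjusted level 1.47% of all tested genes were lower. NFKB2, TRAF3 and NFKBIA, a subunit and a pair of inhibitors, had -0.17, -0.24 and 0.14.

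RAS, MAPK and PI3-kinase genes, 31 in number, had 11 higher and 20 lower and a median log2 fold change of -0.11. The median was 0.00 without gFBXW7 + gKMT2D 3 and -0.24 without gFBXW7 + gKMT2D 2. PTP4A3, the phosphatase PRL-3, which is expressed in many myelomas, had 15.9, 15.5 and 13.8 CPM across the gLuc libraries, 17.5, 16.3 and 16.2 with the FBXW7 RNA and 9.10, 7.26 and 7.03 with both RNAs. All 3 libraries of the last group were lower than the other 6. The log2 fold change was -0.95 ± 0.14 (SE), with an edgeR adjusted p of 0.11 against gLuc and 0.039 against gFBXW7, and PTP4A3 passed against gLuc with DESeq2 (adjusted p = 1.3e-05) and with the surrogate variable (adjusted p = 0.0023). DUSP5, a nuclear phosphatase that switches off ERK, had 32.8, 33.2 and 25.6 CPM across the gLuc libraries, 42.6, 39.98 and 39.5 with the FBXW7 RNA and 43.6, 39.0 and 47.9 with both RNAs, so its values with both RNAs overlapped those with the FBXW7 RNA alone (log2 fold change against gLuc 0.51 ± 0.14, SE, edgeR adjusted p = 0.90). NRAS and BRAF had log2 fold changes of -0.20 and -0.17.

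In the TGF-beta family, LEFTY2 passed and 2 further genes were under an unadjusted p of 0.05 in the same direction, of 22 tested with 7 higher and 15 lower. At that unadjusted level 1.47% of all tested genes were lower and 2.14% higher. LEFTY1, a neighbour of LEFTY2 that also encodes a NODAL inhibitor, had 0.530, 1.02 and 1.07 CPM across the gLuc libraries and 0.393, 0.373 and 0.0718 with both RNAs (log2 fold change -1.51 ± 0.46, SE, edgeR adjusted p = 0.90). The LEFTY genes are close in sequence, and reads could be split between them. SMAD3, an effector of TGF-beta and activin, had 2.33, 2.83 and 2.87 CPM against 1.46, 2.17 and 1.08 CPM (log2 fold change -0.72 ± 0.26, SE, edgeR adjusted p = 0.90). SMAD2, SMAD4 and TGFBR2 had -0.11, -0.10 and -0.18. The list median was -0.11, far from the values of LEFTY2, LEFTY1 and SMAD3. It was 0.00 without gFBXW7 + gKMT2D 3 and -0.27 without gFBXW7 + gKMT2D 2. Wnt and Notch genes had no member past the threshold among 19 tested in edgeR and none under an unadjusted p of 0.05, with a median of -0.15, or -0.08 without gFBXW7 + gKMT2D 3. The Wnt ligand gene WNT10A, not on the list and named after its values were seen, had 4.66, 4.92 and 4.43 CPM across the gLuc libraries, 3.62, 3.99 and 4.08 with the FBXW7 RNA and 2.19, 2.61 and 2.08 with both RNAs. Its values with both RNAs lay below the other 6, with a log2 fold change of -1.01 ± 0.17 (SE, edgeR adjusted p = 0.17), and it passed with DESeq2 (adjusted p = 0.0062) and with the surrogate variable (adjusted p = 0.013).

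Immediate early genes, which cells switch on within minutes of a stimulus, were higher in 12 of 17 cases, with none past the threshold in edgeR and 4 higher at an unadjusted p under 0.05, against 2.14% of all tested genes. EGR1 had 0.954, 1.70 and 0.975 CPM across the gLuc libraries, 2.32, 2.38 and 1.58 with the FBXW7 RNA and 2.53, 4.04 and 2.22 with both RNAs. BTG1, an antiproliferative gene often mutated in lymphoma, had 125, 138 and 117 CPM, 139, 130 and 136 CPM, and 191, 166 and 197 CPM in the same order. For both, gLuc and gFBXW7 + gKMT2D did not overlap, and for EGR1 the gFBXW7 values overlapped both. The log2 fold changes against gLuc were 1.31 ± 0.33 (SE, edgeR adjusted p = 0.85) for EGR1 and 0.55 ± 0.12 (SE, edgeR adjusted p = 0.67) for BTG1, and both passed with the surrogate variable (adjusted p = 0.030 and 0.022). JUNB and EGR2 had log2 fold changes of 0.50 and 0.96. The list median was 0.13, or 0.00 without gFBXW7 + gKMT2D 3 and 0.24 without gFBXW7 + gKMT2D 2. It was 0.21 for gFBXW7 against gLuc and 0.02 for both RNAs against gFBXW7.

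FBXW7 acts on its substrates as proteins, and the counts cover only their transcripts. Of 22 tested, 7 were higher and 15 lower, around a median log2 fold change of -0.13, or 0.01 without gFBXW7 + gKMT2D 3. None passed in edgeR and none had an unadjusted p under 0.05. MYC had 276, 291 and 294 CPM across the gLuc libraries, 212, 250 and 269 with the FBXW7 RNA and 315, 285 and 306 with both RNAs. MCL1 had 462, 501 and 518 CPM across the gLuc libraries and 430, 469 and 331 with both RNAs. CCNE1, which encodes cyclin E1, had 31.6, 32.2 and 34.1 CPM against 38.6, 36.7 and 29.4 CPM. The gLuc and gFBXW7 + gKMT2D values overlapped for all 3 genes, with log2 fold changes of 0.08 ± 0.13 (SE), -0.27 ± 0.15 (SE) and 0.10 ± 0.13 (SE). Of the 22 substrates, 2 were higher without overlap and 0 lower, against 3.28% and 3.69% of all tested genes. AURKA was 1 of the 2, with 103, 100 and 100 CPM in gLuc against 109, 111 and 123 CPM with both RNAs. Its log2 fold change was 0.18 ± 0.11 (SE, edgeR adjusted p = 0.90). Partners of KMT2D and other enzymes of lysine 4 methylation gave 6 higher and 15 lower of 21, and no gene under an unadjusted p of 0.05 in edgeR. The median was -0.05, or 0.00 without gFBXW7 + gKMT2D 3 and -0.17 without gFBXW7 + gKMT2D 2. KDM6A, a partner of KMT2D and the H3K27 demethylase UTX, had a log2 fold change of -0.18 ± 0.22 (SE), and the KMT2D paralog KMT2C had 0.05. Among 28 cell cycle genes none passed and the median was -0.05, or -0.03 without gFBXW7 + gKMT2D 3. The 1 gene under an unadjusted p of 0.05 in edgeR was CDKN1A, which encodes the inhibitor p21, with 1.48, 1.19 and 1.32 CPM across the gLuc libraries, 2.05, 2.38 and 1.83 with the FBXW7 RNA and 3.54, 2.75 and 1.94 with both RNAs (log2 fold change 1.05 ± 0.25, SE, adjusted p = 0.77). Of all tested genes 2.14% were higher at that unadjusted level.

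**Figure D3:**
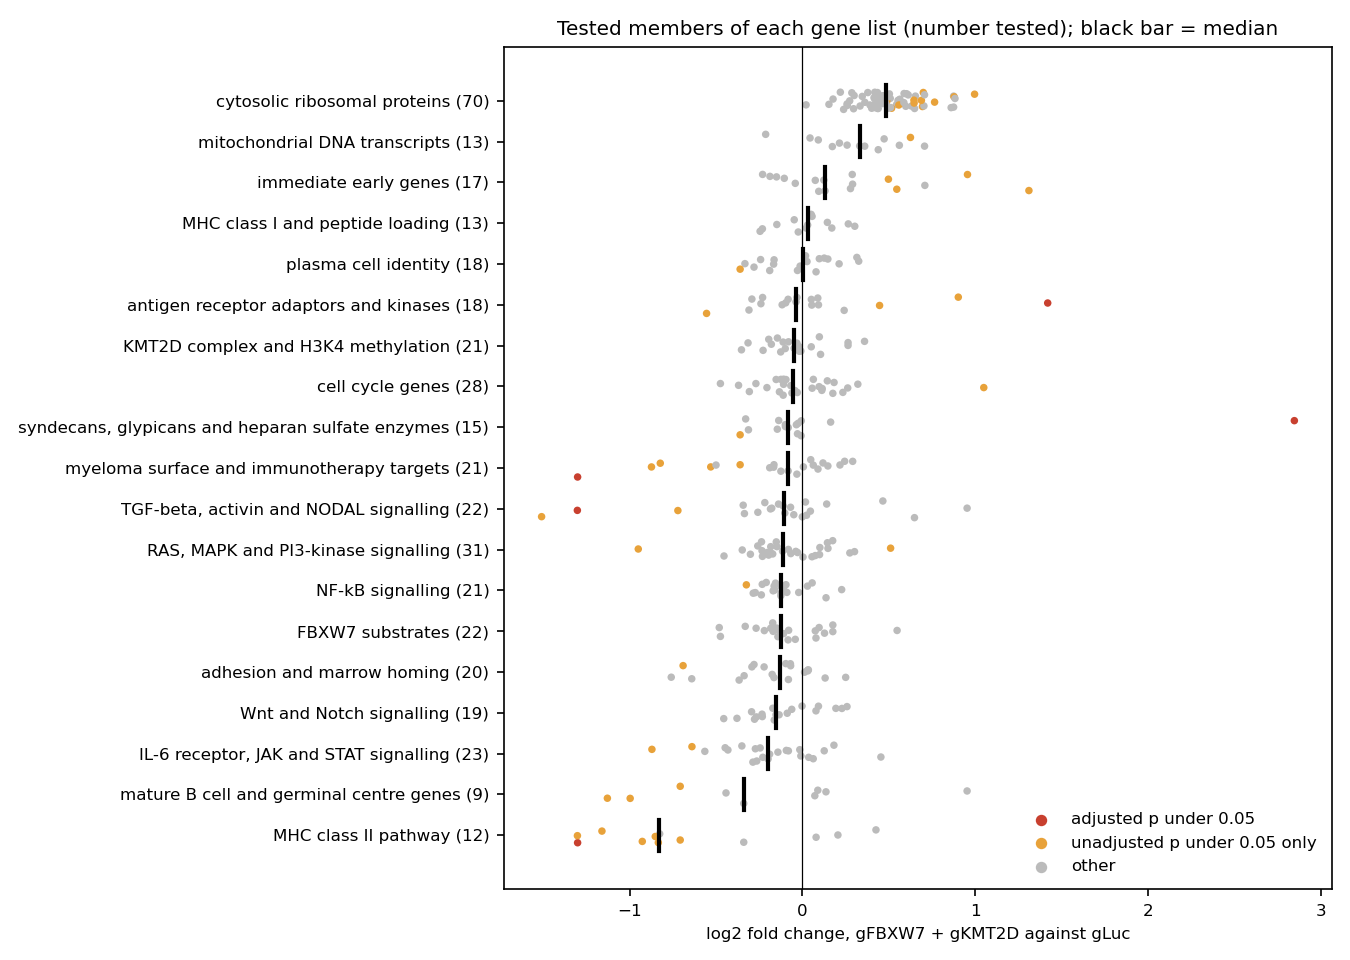
Log2 fold change of gFBXW7 + gKMT2D against gLuc (x axis) for every tested member of 19 gene lists (y axis, number tested in brackets); points are genes, coloured by edgeR p, and black bars are medians. The MHC class II median of -0.83 lies furthest from 0 and the ribosomal protein median of 0.48 lies furthest above it.

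Cytosolic ribosomal protein transcripts varied widely between libraries of a group. All 70 tested were higher in the mean of gFBXW7 + gKMT2D, with a median log2 fold change of 0.48, none past the threshold in edgeR and 12 under an unadjusted p of 0.05, against 2.14% of all tested genes that were higher. Relative to the gLuc mean, the median of the list was 0.41, -0.30 and 1.15 in gFBXW7 + gKMT2D 1, 2 and 3, and 0.42, -0.05 and -0.36 in the gLuc libraries. The groups overlapped. Without gFBXW7 + gKMT2D 3 the median fold change was 0.08, with the surrogate variable it was 0.09, and without gFBXW7 + gKMT2D 2 it was 0.76. What sets gFBXW7 + gKMT2D 3 apart was not tested. Transcripts of mitochondrial DNA had 12 of 13 higher with a median of 0.33, and 0.43 without gFBXW7 + gKMT2D 3. Their list medians were 0.56, 0.48 and -0.16 in gFBXW7 + gKMT2D 1 to 3 and -0.61, 0.23 and 0.34 in gLuc. In gFBXW7 they were -1.72, -0.70 and -0.70, all below gLuc, with a median log2 fold change of -1.03 for gFBXW7 against gLuc and 1.26 for both RNAs against gFBXW7. By contrast, the class II list median was -0.82, -0.83 and -0.46 in the 3 gFBXW7 + gKMT2D libraries and 0.12, -0.10 and 0.07 in gLuc, below gLuc in every one.

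**Figure D4:**
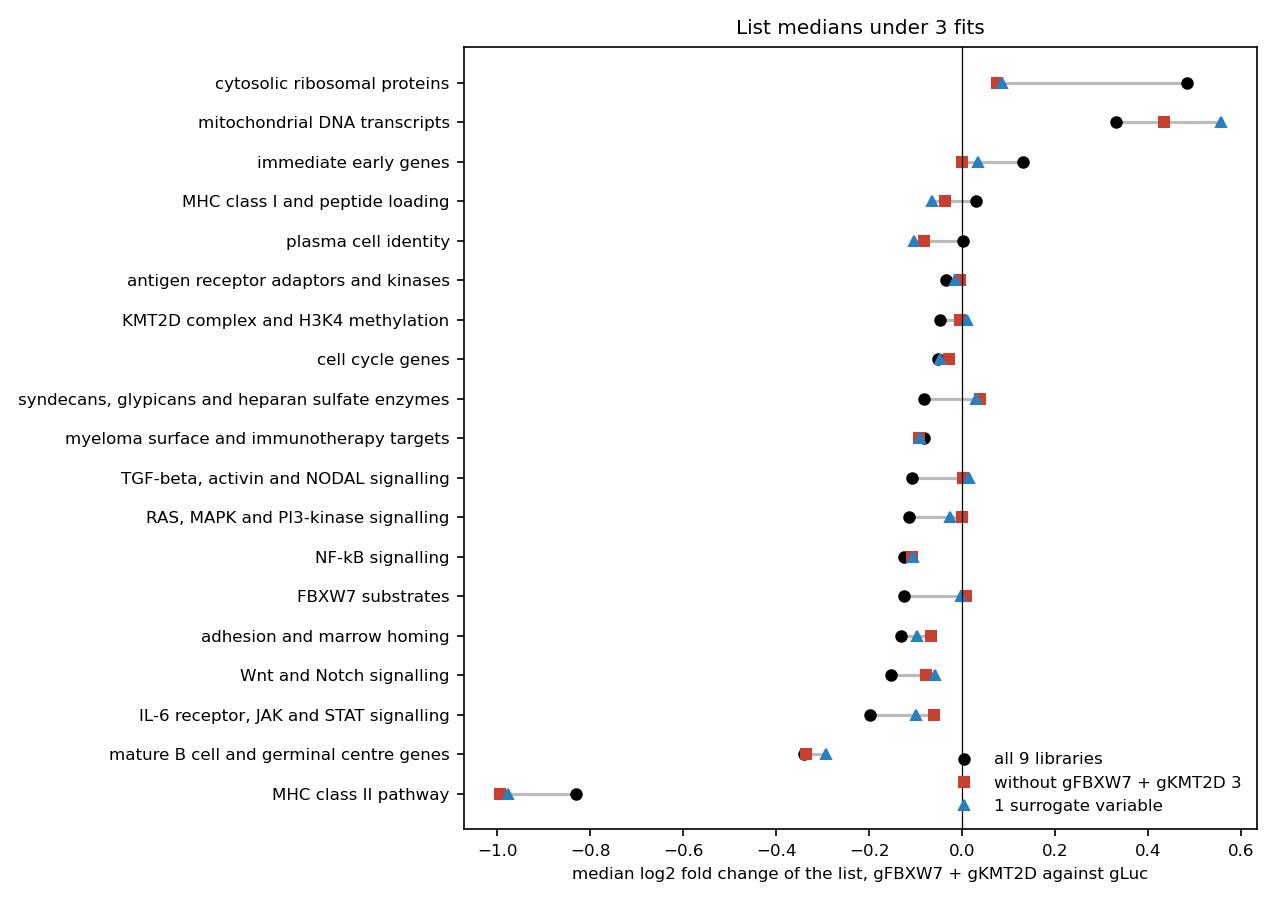
Median log2 fold change of each of 19 lists, gFBXW7 + gKMT2D against gLuc, under 3 fits: all 9 libraries (circles), without gFBXW7 + gKMT2D 3 (squares) and with 1 surrogate variable (triangles). The ribosomal protein median goes from 0.48 to 0.08 and 0.09, whereas the class II median stays between -0.83 and -0.99.

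Beyond the 7 genes, the next genes by unadjusted p were taken in each direction among those whose groups did not overlap and whose log2 CPM averaged 2 or more. Of the lower ones not yet described, ADAM8, a membrane protease, had 16.0, 13.6 and 15.1 CPM across the gLuc libraries and 9.04, 8.69 and 9.69 with both RNAs, and GPR132, a proton-sensing receptor of blood cells, had 39.2, 35.2 and 33.2 CPM against 22.6, 20.1 and 24.1 CPM. Both sets of libraries were separate, with log2 fold changes of -0.71 ± 0.13 (SE) and -0.69 ± 0.13 (SE) and an edgeR adjusted p of 0.25 for each. HVCN1, the voltage-gated proton channel of B cells, had 35.4, 35.7 and 35.5 CPM against 27.1, 22.3 and 19.95 CPM (log2 fold change -0.62, adjusted p = 0.61). GAS7, a protein that binds the actin cytoskeleton, had a log2 fold change of -1.25 (adjusted p = 0.45), and PRKAG3, a regulatory subunit of the kinase AMPK, -0.54 (adjusted p = 0.59). ADAM8, GPR132, GAS7, HVCN1 and PRKAG3 all passed with DESeq2 and with the surrogate variable. Those fits used the same counts by which the genes had been picked, so they are not separate support. The next higher genes under the same limit had no adjusted p below 0.67 in edgeR, with log2 fold changes as follows: BTG1 at 0.55, KCTD17 at 0.89, the peroxiredoxin PRDX2 at 0.59, CCNB1IP1 at 0.56, the casein kinase 2 subunit CSNK2B at 0.82, DUSP5 at 0.51, the pseudogene RPL23P8 at 0.57 and LOC102723722 at 0.59. Reads of RPL23P8 cannot be told from those of its parent gene with certainty. Higher genes below that limit had smaller adjusted p. P2RY6, a receptor for UDP at the cell surface, had 2.44, 1.64 and 1.85 CPM across the gLuc libraries, 2.54, 2.62 and 3.52 with the FBXW7 RNA and 5.28, 4.79 and 4.23 with both RNAs, with a log2 fold change of 1.27 ± 0.22 (SE, edgeR adjusted p = 0.18), and passed with DESeq2 (adjusted p = 0.0011) and with the surrogate variable (adjusted p = 0.0091).

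The DESeq2 test gave 24 genes (0.181%), 8 higher and 16 lower, and the surrogate variable fit 55 genes (0.415%), 15 higher (0.113%) and 40 lower (0.302%). All 7 genes of the edgeR fit without that variable were in both sets. Examples from the second set, chosen after their values were seen, were AQP3, a water and glycerol channel, with 142, 109 and 120 CPM in gLuc against 68.2, 63.9 and 92.4 CPM in gFBXW7 + gKMT2D, and LGALS1, galectin-1, with 53.0, 40.2 and 25.2 CPM against 23.6, 13.8 and 19.7 CPM. Both were lower in every gFBXW7 + gKMT2D library than in any gLuc library. With that variable their log2 fold changes were -0.86 and -1.22 (adjusted p = 0.00082 and 0.0079). In the edgeR fit without it neither passed (adjusted p = 0.67 and 0.90). As bulk RNA, these counts do not tell fewer cells with a transcript from less transcript in each cell.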

How the data were processed

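Poly(A)-selected, strand-specific RNA-seq libraries were deposited as 1 table of gene counts and RPKM for 9 libraries, labelled as 3 independent biological replicates per group. The tools named, without versions or order, in the submitters' processing notes are featureCounts, STAR, Trimmomatic and DESeq2, and the build is GRCh38. The deposited counts are integers, not normalised by the authors. The RPKM values, per the file headers, were also made by the authors, and equalled those recomputed from counts, gene length and library totals to within a relative difference of 8.5e-07. They were used only to compare levels between genes. The unnamed row of totals was dropped, and 28 rows with a number for a symbol were kept and never named. Within a group no library repeats another: between replicates, chi-squared over genes was 6.86 to 254 times its degrees of freedom. Pairs from different groups were not put to that check. Over all pairs of libraries, the highest correlation of log2 CPM was 0.995, between gLuc 3 and gFBXW7 + gKMT2D 2.

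The test was that of edgeR 4.0.16 in R 4.3.3: filterByExpr, TMM scaling, and a quasi-likelihood fit with group as the only term to all 9 libraries, so that the groups share an estimate of spread. P-values were adjusted by Benjamini-Hochberg over 13262 genes, with a threshold of 0.05. The SE of a log2 fold change was derived from the test. It is the absolute fold change divided by the square root of the quasi-likelihood F statistic, so it rests on all 9 libraries. CPM is scaled by TMM, except in the sums of cell type markers, and percentages of reads are unscaled. The code was tested on simulated data. Alternatives were DESeq2 size factors, no filter, a minimum mean of 50 reads, limma-voom (limma 3.58.1), the Wald test of DESeq2 1.42.0, the 6 compared libraries alone, a replicate block, 1 surrogate variable (sva 3.50.0) and each library left out. The fit with 1 surrogate variable and without gFBXW7 + gKMT2D 3 was added after seeing the data. All alternatives used the same counts, so passing in several of them is not separate support for a gene.

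The comparison and the 20 gene lists (537 entries) were chosen with earlier results of these data known, so no list is independent support. Named genes were FBXW7 and KMT2D, every gene past the threshold, the next 8 higher and 8 lower genes by unadjusted p whose groups did not overlap and whose mean log2 CPM was at least 2, and up to 3 members per list by unadjusted p. Other genes were named as examples of a list or after their values were seen. Among them were HLA-DRB1, HLA-DQA1, P2RY6, AQP3, LGALS1, PTPRC, EGR2, TNFRSF10A, WNT10A, CCR10, LAT, CPQ and SYNPO. Promoter sequences are RefSeq's, GRCh38.p14, and gene positions GENCODE v29. Figures used Python 3.11.15 and matplotlib 3.10.9.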

Additional observations from a re-analysis of the deposited data

How the results depend on the processing

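Against 7 genes past the threshold (4 higher, 3 lower), 21 passed with no filter (9 and 12), 24 with DESeq2 (8 and 16), 55 with 1 surrogate variable (15 and 40), 220 with that variable and without gFBXW7 + gKMT2D 3 (85 and 135), and 2 with the 6 compared libraries alone (2 and 0). DESeq2 size factors and limma-voom gave 7, and a mean of 50 reads gave 6, since LINC01420 was then not tested. Leaving out 1 library gave 2 to 8 genes, 2 to 5 higher and 0 to 3 lower. Without gFBXW7 + gKMT2D 2, 18.7% of genes had an unadjusted p under 0.05, against 3.61% with all libraries. The called genes never changed direction. FBXW7 (0.11) and KMT2D (-0.14) did: FBXW7 was -0.051 with 1 surrogate variable, -0.13 with that variable and without gFBXW7 + gKMT2D 3, and -0.14 to 0.23 with 1 library left out; KMT2D was 0.21, 0.11 and -0.82 to 0.32. The cause was not tested. Same-numbered libraries of different groups had correlations of their deviations from -0.59 to 0.45, over 0.1 in 4 of 9 pairs, so the numbers were not treated as pairs. With the replicate block, 2 genes passed (2 higher, 0 lower). Depth limits LINC01420, LEFTY1, PTPRC and EGR2, which had few reads.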

Other observations

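Genes near those past the threshold were looked at after their values had been seen. Within 500 kb of 6 of them, 51 other genes were tested, none passed in edgeR, and 6 had an unadjusted p under 0.05, against 3.61% of all tested genes. CPQ, a peptidase gene near SDC2, had 2.23, 2.54 and 2.44 CPM across the gLuc libraries, 2.27, 2.97 and 3.21 with the FBXW7 RNA and 4.49, 5.06 and 4.31 with both RNAs. Like SDC2 it was higher in all 3 libraries with both RNAs than in the other 6 (log2 fold change 0.95 ± 0.19, SE, edgeR adjusted p = 0.35). SYNPO, an actin-associated protein gene near CD74, had 1.27, 1.58 and 2.29 CPM across the gLuc libraries, 1.19, 1.49 and 0.866 with the FBXW7 RNA and 0.281, 0.713 and 0.287 with both RNAs (log2 fold change -1.87 ± 0.41, SE, edgeR adjusted p = 0.56). Both passed with DESeq2 (adjusted p = 0.026 for CPQ and 0.038 for SYNPO). LEFTY1 near LEFTY2 and TNIP1 near ANXA6 had lower values too, as given above, and neither passed. EPHX1 and TMEM63A near LEFTY2 had log2 fold changes of -0.36 and -0.42 (unadjusted p = 0.021 and 0.026). Near CD74, 6 of 9 genes were higher, with a median log2 fold change of 0.05. Near MLC1, 14 of 19 genes were lower and 5 higher, with a median log2 fold change of -0.15, and near AFAP1L2, 2 of 4 were higher.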
